A study of Mus musculus with 9 samples.

Results

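The T cell receptor complex and its coreceptors were followed through 9 hippocampal RNA-seq libraries by 10 genes, out of 47643 in the count matrix: Trbc2, Cd3d, Cd3e, Cd3g, Cd247, Lck, Cd4, Cd8a, Cd8b1 and Cd5. The genes were chosen by name for their place in the complex, with earlier results of these data known, and all 10 were found. The libraries came from 3 MRL/mpj mice (untreated, wild type in the labels), 3 MRL/lpr mice (untreated) and, as a further group called MRL/lpr+MSC, 3 MRL/lpr mice that had received mesenchymal stem cells, all at postnatal week 6. MRL/lpr mice carry the lpr insertion in Fas in every cell, and the MRL/lpr+MSC mice carry it too. The labels name C57BL/6 as the strain of every library where the study's text names the MRL/MpJ strain and its Faslpr form, and the dose, route and time of the stem cells are not given in the sources used here.

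The T cell receptor is a pair of variable chains, alpha and beta or gamma and delta, that reads antigen but has no signalling tail of its own. It sits in the membrane with the CD3 delta, epsilon and gamma chains and a pair of zeta chains, whose tails are phosphorylated by the kinase LCK when the receptor binds. CD4 and CD8 bind the major histocompatibility complex beside the receptor and bring LCK with them, and CD5 dampens the signal. The healthy brain holds few T cells, most of them in its vessels, meninges and choroid plexus, and the lpr mutation is known for an expansion of T cells in lymphoid organs that includes cells with neither CD4 nor CD8.

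The sum of all counts per library ran from 19475804 to 26912031. A count of 0 still allows a level of 3 counts, which is 0.105 to 0.163 CPM (counts per 1000000 reads of the library, its size scaled by TMM) depending on the library, and this limit, like every interval from counts below, covers counting error only. The labels were checked against the study's supplementary expression table, of which only the first rows were available here. The columns it heads MRL/mpj scaled exactly with the MRL/mpj libraries, but those it heads MRL/lpr scaled exactly with the libraries that the labels call MRL/lpr+MSC, in every gene compared. A pathway list of the study for MRL/mpj versus MRL/lpr mice, on the other hand, names the CD3 genes, and these stood farther from MRL/mpj in the libraries labelled MRL/lpr. The sources used here thus point both ways on which of the lpr groups is the untreated one, and do not settle it. In what follows MRL/lpr and MRL/lpr+MSC mean the libraries labelled so, each is given beside MRL/mpj, and the direction between them would turn if the labels were exchanged. Fas itself did not mark the groups by its total count, with 40, 43 and 30 counts in MRL/mpj, 65, 31 and 42 in MRL/lpr and 19, 24 and 41 in MRL/lpr+MSC libraries.

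The genes of the complex lie in a few places of the genome (GRCm38, GENCODE positions). Cd3g (chromosome 9, 44969572 to 44980431, minus strand), Cd3d (44981786 to 44987339, plus strand) and Cd3e (44998740 to 45009627, minus strand) stand within 40056 bases, and Cd3g and Cd3d start 1355 bases apart and point away from each other. Cd8b1 (chromosome 6, 71322788 to 71337494) and Cd8a (71373427 to 71379173) are 35932 bases apart, Trbc2 lies on the same chromosome (41546730 to 41548352) and so does Cd4 (124864692 to 124888221, minus strand). Cd247 is on chromosome 1 (165788681 to 165877277), Lck on chromosome 4 (129548344 to 129573641, minus strand) and Cd5 on chromosome 19 (10717116 to 10739002, minus strand). Because the CD3 and zeta genes were high together in the libraries below, their promoter windows from RefSeq (GRCm38.p6) are shown here. Each line runs 5′ to 3′ along the strand of the gene, from 250 bases before the start to 50 after it. The windows lie at chr9:44981536-44981835 (Cd3d, plus strand), chr9:45009562-45009861 (Cd3e, minus strand), chr9:44980382-44980681 (Cd3g, minus strand) and chr1:165788431-165788730 (Cd247, plus strand). Capitals mark GGAAGT, the letters of a site of the ETS factors, read from either strand. They also mark CAGGTG, an E-box, read from either strand.
Cd3d: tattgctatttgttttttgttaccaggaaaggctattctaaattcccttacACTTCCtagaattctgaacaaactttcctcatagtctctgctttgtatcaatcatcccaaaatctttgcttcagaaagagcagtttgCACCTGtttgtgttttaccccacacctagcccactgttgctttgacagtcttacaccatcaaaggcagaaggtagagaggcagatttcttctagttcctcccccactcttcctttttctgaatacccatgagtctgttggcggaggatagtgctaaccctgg
Cd3e: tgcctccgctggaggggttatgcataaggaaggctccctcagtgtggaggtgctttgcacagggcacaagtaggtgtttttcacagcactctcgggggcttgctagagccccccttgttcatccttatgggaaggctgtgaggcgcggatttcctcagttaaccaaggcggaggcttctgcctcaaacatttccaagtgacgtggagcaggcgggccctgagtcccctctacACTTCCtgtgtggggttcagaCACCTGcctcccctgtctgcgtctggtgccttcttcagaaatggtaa
Cd3g: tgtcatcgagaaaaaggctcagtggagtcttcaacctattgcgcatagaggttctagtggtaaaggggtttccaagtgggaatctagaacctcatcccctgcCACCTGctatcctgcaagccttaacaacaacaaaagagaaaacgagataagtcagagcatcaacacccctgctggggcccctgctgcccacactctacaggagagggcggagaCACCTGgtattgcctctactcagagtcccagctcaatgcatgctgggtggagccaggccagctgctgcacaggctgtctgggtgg
Cd247: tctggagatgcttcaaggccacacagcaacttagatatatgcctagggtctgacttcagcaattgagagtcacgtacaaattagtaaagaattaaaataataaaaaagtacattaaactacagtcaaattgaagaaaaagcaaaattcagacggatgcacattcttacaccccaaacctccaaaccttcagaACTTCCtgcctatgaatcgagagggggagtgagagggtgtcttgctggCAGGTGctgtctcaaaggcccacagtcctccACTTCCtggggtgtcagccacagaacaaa

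RefSeq windows were found for 7 of the 10 genes, with 2 windows for Lck, so 8 windows were searched. GGAAGT on either strand was in 6 of the 8, all but those of Cd3g and Cd8a, against 23.8% of all 32851 promoter windows. CAGGTG was in 7 of the 8, all but that of Cd8a, against 20.2% of all windows. The 2 motifs share no position in these windows, and both were present in 6 of the 8 windows and in 4.59% of all windows. Other motifs of 6 letters were searched on both strands too. The RUNX letters TGTGGT were in 1 of the 8 windows and in 16.8% of all windows. The TCF/LEF letters CTTTGA were in 2 of the 8 and in 16.0% of all. The GATA letters AGATAA were in 1 of the 8 and in 11.2% of all. A match is a run of letters in this window and not a site shown to be bound.

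Each of the 10 genes stood higher in the MRL/lpr libraries than in those of MRL/mpj mice, with no overlap between the groups. Among 29355 genes counted at least once in these 6 libraries, 13.8% were higher in MRL/lpr with no overlap. The 10 genes together held 148 counts in the 3 MRL/mpj libraries, 1364 in the 3 MRL/lpr libraries and 278 in the 3 MRL/lpr+MSC libraries. In MRL/mpj libraries 13 of the 30 values were 0, against 0 of 30 in MRL/lpr and 3 of 30 in MRL/lpr+MSC libraries. In bulk tissue, fewer cells of a type and less RNA per cell cannot be told apart.

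**Figure D1:**
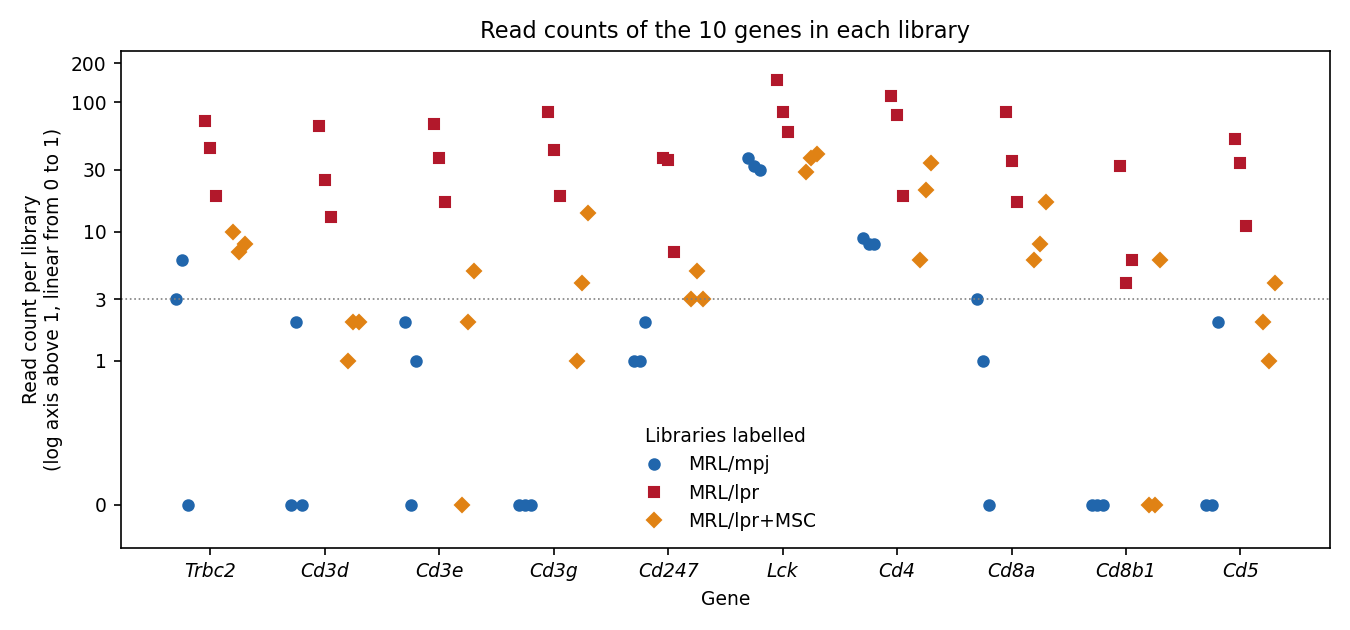
Read count of each of the 10 genes in each library (y axis, log above 1 and linear from 0 to 1), with blue circles for MRL/mpj, red squares for MRL/lpr and orange diamonds for MRL/lpr+MSC libraries, 3 of each, and a dotted line at 3 counts. The red squares stand above every blue circle in all 10 genes, from 4 to 149 counts, and the orange diamonds lie from 0 to 40.

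The CD3 chains, which carry the signal of the receptor into the cell, were close to absent from MRL/mpj libraries. Cd3g had no count in any of the 3 MRL/mpj libraries, 84, 43 and 19 counts in the MRL/lpr libraries and 1, 4 and 14 in the MRL/lpr+MSC libraries. Cd3d had 0, 2 and 0 counts in MRL/mpj, 66, 25 and 13 in MRL/lpr and 1, 2 and 2 in MRL/lpr+MSC libraries. Cd3e had 2, 0 and 1, then 68, 37 and 17, then 0, 2 and 5 counts in the same order of groups. Every MRL/lpr library was above every other library for each of these 3 genes, and MRL/lpr replicate 1 was the highest. Set against a floor of 3 counts over the MRL/mpj group, Cd3g was at least 39.7-fold higher in MRL/lpr libraries. By the counts of the groups scaled to library size, Cd3d was 42.4-fold higher (95% interval 11.4 to 355, from the exact binomial test of the split of counts) and Cd3e 33.2-fold (11.1 to 163). The few counts in MRL/mpj libraries set the width of these intervals. Without MRL/lpr replicate 1 the ratio of Cd3d was 24.9, and without MRL/mpj replicate 2, which held both of its MRL/mpj counts, it was at least 17.6. The ratio of Cd3e was 67.3 without MRL/mpj replicate 1 and 20.7 without MRL/mpj replicate 2, and the bound of Cd3g was 24.7 without the latter. Cd247, the zeta chain with the most phosphorylation motifs of the complex, had 1, 1 and 2 counts in MRL/mpj, 37, 36 and 7 in MRL/lpr and 3, 5 and 3 in MRL/lpr+MSC libraries. It was 16.3-fold higher in MRL/lpr libraries than in MRL/mpj libraries (interval 6.13 to 61.3). Taken as a sum, the 4 CD3 and zeta genes had 3 counts in each MRL/mpj library, 255, 141 and 56 in the MRL/lpr libraries and 5, 13 and 24 in the MRL/lpr+MSC libraries.

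Trbc2, a constant region of the receptor's beta chain, had 3, 6 and 0 counts in MRL/mpj, 72, 44 and 19 in MRL/lpr and 10, 7 and 8 in MRL/lpr+MSC libraries. The 3 groups did not overlap, with MRL/lpr+MSC libraries between the others. The group of MRL/lpr libraries was 12.2-fold above MRL/mpj (interval 6.25 to 27.3), and 22.9-fold without MRL/mpj replicate 2. Of the 50-base words in the transcripts of Trbc2, 44.0% also occur in Trbc1, the other beta constant gene, so the split of reads between these 2 genes is uncertain. Trbc1 had 0, 1 and 0 counts in MRL/mpj, 56, 22 and 11 in MRL/lpr and 3, 3 and 0 in MRL/lpr+MSC libraries. Trac, the only alpha constant gene, had 5, 8 and 1 counts in MRL/mpj, 52, 26 and 18 in MRL/lpr and 7, 10 and 14 in MRL/lpr+MSC libraries. The delta constant gene Trdc stayed at 4 counts or fewer in every library, with 1, 5 and 3 counts in the groups in the same order.

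Gene segments of the variable regions gave few reads, and those of the beta chain followed the constant genes. Trbv segments had 0, 1 and 0 counts in MRL/mpj, 38, 16 and 7 in MRL/lpr and 0, 4 and 6 in MRL/lpr+MSC libraries. These counts came from 1 of the 35 Trbv segments of the matrix in MRL/mpj libraries, from 16 in MRL/lpr and from 5 in MRL/lpr+MSC libraries. In MRL/lpr replicate 1 the 38 counts were spread over 15 segments, the highest of them Trbv13-3 with 8. More reads show more segments, so these numbers are counts of segments seen and not a measure of diversity. Trav segments differed less, with 11, 16 and 8 counts in MRL/mpj, 26, 14 and 13 in MRL/lpr and 8, 9 and 8 in MRL/lpr+MSC libraries. One segment, Trav3-3, made up 9, 8 and 5 of the counts in MRL/mpj libraries and 16, 4 and 9 of those in MRL/lpr libraries. The joining segments of the alpha chain (Traj) did rise, with 3 counts in MRL/mpj, 24 in MRL/lpr and 8 in MRL/lpr+MSC libraries. Those of the beta chain (Trbj) had 0, 14 and 1 counts in the same order of groups.

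The coreceptors followed the same groups. Cd8a, the CD8 chain found in both forms of that coreceptor, had 3, 1 and 0 counts in MRL/mpj, 84, 35 and 17 in MRL/lpr and 6, 8 and 17 in MRL/lpr+MSC libraries. It was 27.7-fold higher in MRL/lpr libraries than in MRL/mpj libraries (interval 10.6 to 103), 17.1-fold without MRL/lpr replicate 1 and 74.97-fold without MRL/mpj replicate 1, which held 3 of its 4 MRL/mpj counts. Cd8b1, the chain of the CD8 form typical of conventional killer T cells, had no count in MRL/mpj libraries, 32, 4 and 6 counts in MRL/lpr and 0, 0 and 6 in MRL/lpr+MSC libraries. Its group was at least 11.4-fold above MRL/mpj by the same floor, at least 4.37-fold without MRL/lpr replicate 1 and at least 7.11-fold without MRL/mpj replicate 2. Cd4, which marks helper T cells and is also carried by some macrophages and dendritic cells, had 9, 8 and 8 counts in MRL/mpj, 112, 79 and 19 in MRL/lpr and 6, 21 and 34 in MRL/lpr+MSC libraries. It was 6.85-fold higher in MRL/lpr libraries (interval 4.51 to 10.8), and MRL/lpr replicate 3 lay within the range of the MRL/lpr+MSC libraries. Of the summed counts of Cd4 and Cd8a, Cd4 gave 57.1% in MRL/lpr replicate 1 (exact binomial 95% interval 49.9 to 64.2), 69.3% in replicate 2 (60.0 to 77.6) and 52.8% in replicate 3 (35.5 to 69.6). In MRL/lpr+MSC libraries the share was 6 of 12 counts (21.1% to 78.9%), 72.4% (52.8 to 87.3) and 66.7% (52.1 to 79.2). In MRL/mpj libraries it was 9 of 12 counts (42.8% to 94.5%), 88.9% (51.8 to 99.7) and 8 of 8 counts (63.1% to 100%). The shares of the lpr groups overlap, those of MRL/mpj libraries lay above both, and the difference was not tested. The share compares reads of 2 transcripts of different length and is not a share of cells.

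Lck had the most counts of the 10 genes in MRL/mpj libraries, where no other gene had more than 9 in a library. It had 37, 32 and 30 counts in MRL/mpj, 149, 84 and 59 in MRL/lpr and 29, 37 and 40 in MRL/lpr+MSC libraries. The kinase is best known from T cells, and its transcripts have also been described in neurons. MRL/lpr libraries were 2.40-fold above MRL/mpj (interval 1.91 to 3.05), the smallest ratio among the 10 genes, while MRL/lpr+MSC libraries were at 1.04-fold (0.780 to 1.38). Cd5, a surface receptor of T cells and of some B cells that restrains receptor signalling, had 0, 0 and 2 counts in MRL/mpj, 52, 34 and 11 in MRL/lpr and 2, 1 and 4 in MRL/lpr+MSC libraries. Its ratio of MRL/lpr to MRL/mpj was 39.5 (interval 10.7 to 331), 24.6 without MRL/mpj replicate 2 and at least 18.5 without MRL/mpj replicate 3.

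The test of these differences was limma voom, fitted over all genes, and a gene was called differentially expressed at an adjusted p under 0.05 together with a 1.5-fold change or more. Of the 16697 genes tested between MRL/lpr and MRL/mpj libraries, 5.91% were differentially expressed, and of the 10 genes 8 were tested and 6 were differentially expressed, all 6 higher. Cd247 and Cd8b1 had too few counts to enter the test. Of the 8 tested, 7 reached the filter on low counts only through the MRL/lpr libraries and so had to differ, and Lck passed it in every library; their number is therefore no support for a difference. Cd3g had the smallest adjusted p of the 6 (0.00906, limma voom with Benjamini-Hochberg adjustment), and its fitted fold is not given because the reference is at 0. The log2 fold change was 4.80 ± 0.88 (SE) for Cd3d (limma voom, adjusted p = 0.0246), 4.59 ± 0.84 for Cd3e (adjusted p = 0.0244), 4.74 ± 0.93 for Cd5 (adjusted p = 0.0298), 4.51 ± 0.94 for Cd8a (adjusted p = 0.0346) and 3.88 ± 0.94 for Trbc2 (adjusted p = 0.0498). Lck at 1.18 ± 0.35 (limma voom, adjusted p = 0.0736) and Cd4 at 2.41 ± 0.85 (adjusted p = 0.114) did not pass.

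These calls rest on few libraries. With any 1 of the 3 MRL/mpj libraries left out, 0 of the genes were differentially expressed in limma voom, with the adjusted p of Cd3g between 0.0769 and 0.0826. Without MRL/lpr replicate 1, only Cd3d (limma voom, adjusted p = 0.0499) and Cd3g (adjusted p = 0.0216) remained of the 6, without replicate 2 there were 5, and without replicate 3 there were 9, Cd4, Lck and Cd247 among them. The log2 fold changes were positive for each tested gene in every such fit, from 0.90 for Lck to 5.60 for Cd5 with Cd3g left aside. Because all but Lck needed the MRL/lpr libraries to reach the filter, their shared sign is no support for a difference. With no filter on low counts, Cd8b1 joined the 6 (limma voom, adjusted p = 0.0206) and Cd247 did not (log2 fold change 3.34, adjusted p = 0.0529).

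**Figure D2:**
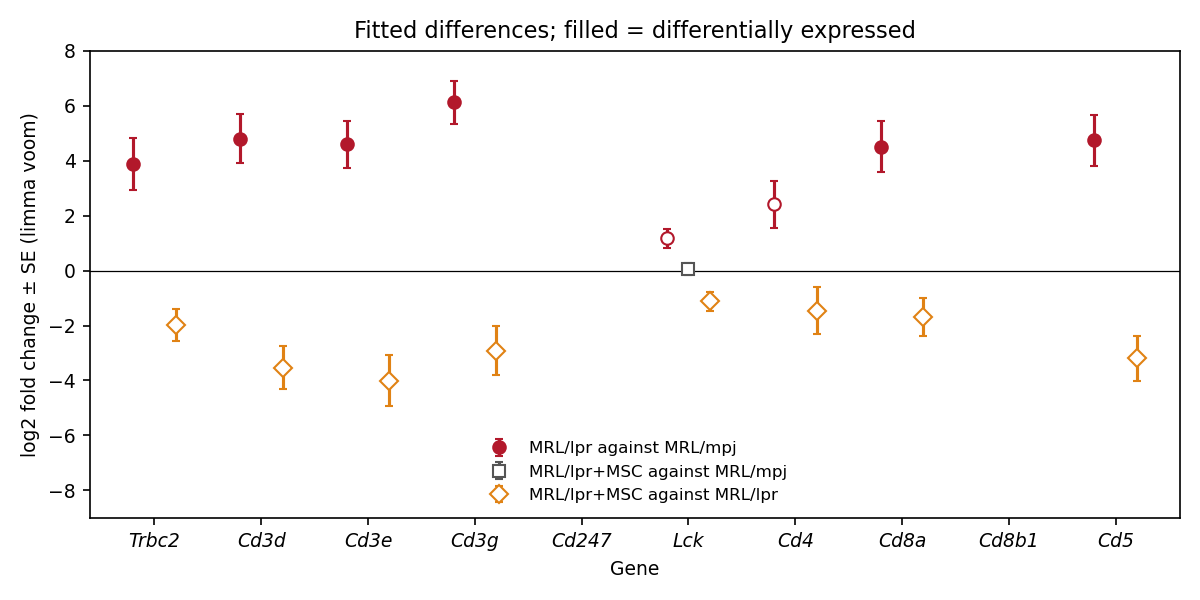
Fitted log2 fold change with its standard error (y axis) for each tested gene in MRL/lpr against MRL/mpj (red circles), MRL/lpr+MSC against MRL/mpj (grey square) and MRL/lpr+MSC against MRL/lpr (orange diamonds), filled where differentially expressed. The red points run from 1.18 (Lck) to the fitted value of Cd3g, which depends on a reference at 0, 6 of the 8 are filled, and all 8 orange points are open and below 0.

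In MRL/lpr+MSC libraries the genes lay between MRL/mpj and MRL/lpr, nearer to MRL/mpj by the difference in the counts of the groups. By ratio, Cd8a lay nearer to MRL/lpr. Against MRL/mpj, 4 of the 10 genes were higher with no overlap (Trbc2, Cd3g, Cd247 and Cd8a), while 10.5% of the 28893 genes counted in these 6 libraries were so. By counts pooled over the libraries of a group, Cd8a was 7.50-fold higher (interval 2.65 to 29.2), Trbc2 2.69-fold (1.21 to 6.54) and Cd4 2.36-fold (1.46 to 3.93). Such intervals leave out the spread between libraries, so an interval above 1 is not a test of the groups. Cd4 was not higher in each library. Its level in MRL/lpr+MSC replicate 1 (0.312 CPM) was below the whole MRL/mpj range (0.345 to 0.452 CPM). Cd3g was at least 6.13-fold higher, at least 3.82-fold without MRL/mpj replicate 2 and at least 2.504-fold without MRL/lpr+MSC replicate 3, which held 14 of its 19 counts. Cd8b1 was at least 1.94-fold higher, with all 6 counts in replicate 3, and so had no count left without it. Without MRL/mpj replicate 1 the ratio of Cd8a was 20.3, and without MRL/mpj replicate 2 that of Trbc2 was 5.03. The interval came to include 1 for Trbc2 without MRL/mpj replicate 3 (ratio 1.88) or without MRL/lpr+MSC replicate 1 (2.31), and for Cd4 without MRL/lpr+MSC replicate 3 (1.62). For Cd3d, Cd3e, Cd247 and Cd5 the interval of the ratio included 1. In the fit of MRL/lpr+MSC against MRL/mpj libraries 3.36% of 16196 genes were differentially expressed. Lck alone of the 10 had the counts to be tested, and its log2 fold change was 0.06 ± 0.22 (SE, limma voom, adjusted p = 0.909). With no filter all 10 were tested and 0 were differentially expressed, the nearest being Cd3g (limma voom, adjusted p = 0.0679) and Cd8a (adjusted p = 0.0699). In that fit the log2 fold change was 1.89 ± 0.76 (SE) for Trbc2 (limma voom, adjusted p = 0.258). For Cd4 it was 0.94 ± 0.59 (adjusted p = 0.49).

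Between the 2 lpr groups, 7 of the 10 genes were lower in MRL/lpr+MSC than in MRL/lpr libraries with no overlap, all but Cd4, Cd8a and Cd8b1, and of 29293 genes 4.95% were lower with no overlap. The ratio of MRL/lpr+MSC to MRL/lpr ran from 0.0571 for Cd3d (interval 0.0181 to 0.137) to 0.431 for Lck (0.342 to 0.540). Among the coreceptors it was 0.345 for Cd4 (0.255 to 0.461), 0.271 for Cd8a (0.177 to 0.402) and 0.170 for Cd8b1 (0.0589 to 0.401). Without MRL/lpr replicate 1 the ratio was 0.440 for Cd8a, 0.0971 for Cd3d and 0.443 for Cd8b1, whose interval (0.132 to 1.34) then included 1. Without MRL/lpr+MSC replicate 3 it was 0.0302 for Cd3e, 0.0631 for Cd3g and 0.0570 for Cd5, and Cd8b1, with no count left in that group, was at least 7.60-fold lower. Without MRL/lpr+MSC replicate 2 it was 0.258 for Cd8b1. In the test by limma voom, 0 of the 8 genes tested and 0% of the 16758 genes were differentially expressed. At an unadjusted p under 0.05 there were 7 of the 8 genes and 640 of all genes, and the adjusted p was 0.921 for each of the 8. The log2 fold changes were negative in all 8, from -1.12 ± 0.34 (SE) for Lck to -4.00 ± 0.92 for Cd3e. All of the 8 but Lck needed the MRL/lpr libraries to reach the filter on low counts. Their number and shared direction in this test are therefore no support for a difference. Since the 3 comparisons share libraries, they are not independent of each other.

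The genes varied together within the MRL/lpr group. Of the 10, 9 were highest in MRL/lpr replicate 1 and 9 were lowest in replicate 3, by CPM. Cd247 was highest in replicate 2, and Cd8b1 was lowest there. The sum of the CD3 and zeta genes was 8.92, 6.03 and 2.38 CPM in MRL/lpr replicates 1, 2 and 3, against 0.129 to 0.163 CPM in MRL/mpj libraries and 0.260, 0.598 and 1.06 CPM in MRL/lpr+MSC libraries. Among the MRL/lpr+MSC libraries, 7 of the 10 genes were highest in replicate 3.

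Compared per length by the authors' FPKM, Trbc2 was the highest of the 10 in MRL/lpr libraries at 2.49 ± 1.24 FPKM (SD, n = 3). Cd3g at 1.73 ± 0.987, Lck at 1.28 ± 0.460, Cd3e at 1.08 ± 0.572 and Cd3d at 0.983 ± 0.676 FPKM followed. Each of these neighbours in the order lay within the spread of the next. Lower levels were those of Cd4 (0.666 ± 0.409 FPKM), Cd5 (0.599 ± 0.335), Cd8a (0.469 ± 0.306), Cd8b1 (0.345 ± 0.351) and Cd247 (0.195 ± 0.123), again with overlap between neighbours. In MRL/mpj libraries the order began with Lck at 0.554 ± 0.0812 FPKM, then Trbc2 at 0.196 ± 0.187 and Cd4 at 0.102 ± 0.0146, and the other 7 were at 0.0359 FPKM or less. MRL/lpr+MSC libraries had Trbc2 at 0.577 ± 0.156 and Lck at 0.567 ± 0.0444 FPKM on top. Set against the mean FPKM of Cd3d, Cd3e and Cd3g in the same library, the summed FPKM of Cd4 and Cd8a was 0.868, 1.03 and 0.714 times as high in MRL/lpr libraries. It was 5.57, 3.35 and 2.18 times as high in MRL/lpr+MSC libraries and 4.48 to 8.55 times in MRL/mpj libraries, where the CD3 genes had 3 counts or fewer in each library. In MRL/lpr+MSC replicate 1 it rested on 1, 0 and 1 counts of Cd3d, Cd3e and Cd3g, and Cd4 had 8 to 9 counts in each MRL/mpj library. The ratio is a description of few counts and was not tested.

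**Figure D3:**
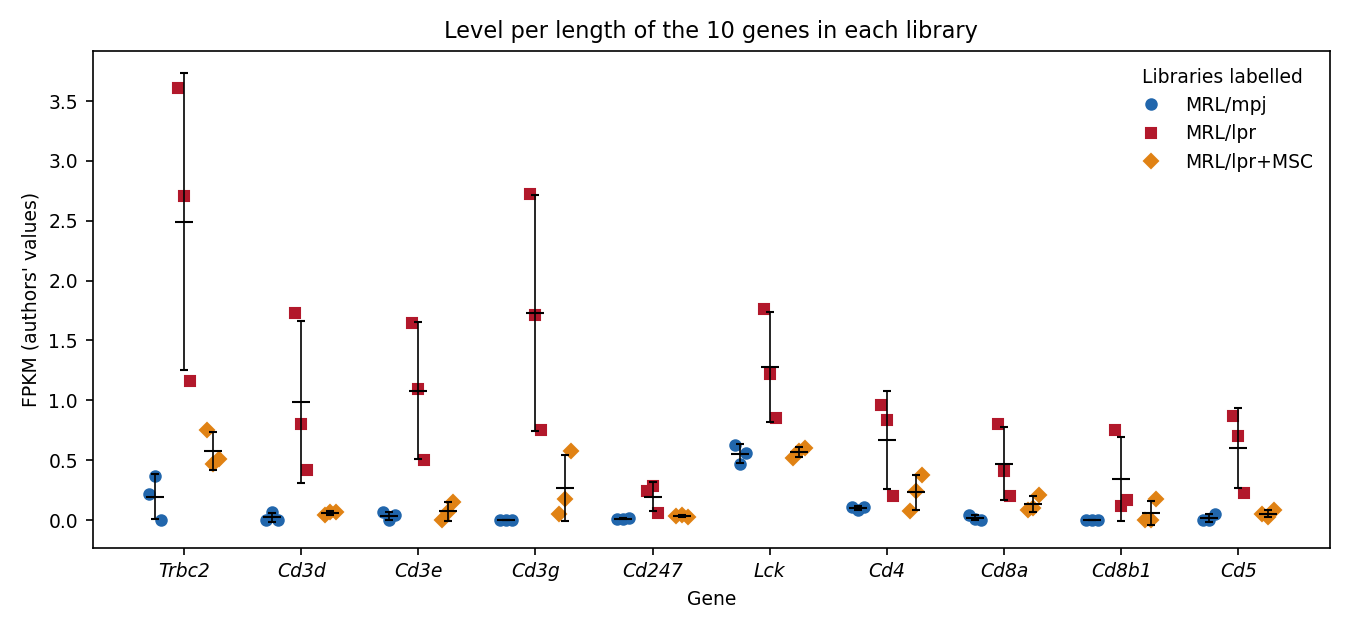
FPKM of each of the 10 genes in each library (y axis, linear), with blue circles for MRL/mpj, red squares for MRL/lpr and orange diamonds for MRL/lpr+MSC libraries, and the mean and SD of each group (n = 3) in black. Trbc2 has the highest mean in MRL/lpr libraries (2.49) and Cd247 the lowest (0.195), and Lck is the highest gene of the MRL/mpj libraries (0.554).

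Other genes of the receptor pathway were described from lists. Of 25 genes of signalling close to the receptor, 19 were tested between MRL/lpr and MRL/mpj libraries. Of these, 0 were called higher and 1 lower, with a median log2 fold change of 0.25 against 0.01 over all genes tested. By CPM, 9 of the 25 were higher in MRL/lpr with no overlap and 3 lower, while 13.8% of all genes counted were higher. The gene called lower was Rasgrp1, a Ras activator that neurons also express. It fell by 0.76 on the log2 scale (limma voom, adjusted p = 0.0436) and by 0.61 in MRL/lpr+MSC against MRL/mpj libraries (adjusted p = 0.0303). Rasgrp1 stood at 837 to 961 CPM in MRL/mpj libraries, where Lck had 1.38 to 1.86. Lcp2, the adaptor SLP-76, had a log2 fold change of 0.09 in MRL/lpr (limma voom, adjusted p = 0.759) and fell by 1.08 in MRL/lpr+MSC libraries (adjusted p = 0.0281), both against MRL/mpj. Among 20 surface receptors of T cells, 11 were tested and 2 rose in MRL/lpr libraries, with a median of 2.08. Of all 16697 genes tested, 571 were differentially expressed and higher and 415 lower. Cd2, an adhesion receptor of T and NK cells, had no count in MRL/mpj, 50, 26 and 11 in MRL/lpr and 2, 6 and 4 in MRL/lpr+MSC libraries. It was at least 23.6-fold higher in MRL/lpr, and at least 14.7-fold without MRL/mpj replicate 2. With no library left out, Cd2 was differentially expressed (limma voom, adjusted p = 0.00995). Pdcd1, the inhibitory receptor PD-1, had 0, 4 and 1, then 42, 18 and 11, then 1, 5 and 6 counts and rose by 3.54 on the log2 scale (limma voom, adjusted p = 0.0434).

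In MRL/lpr+MSC against MRL/mpj libraries, 3 of the surface receptors were tested and 2 fell, against 243 of all 16196 genes tested. Lag3, an inhibitory receptor that is also found outside T cells, fell by 1.44 on the log2 scale (limma voom, adjusted p = 0.0108), and the interleukin-7 receptor gene Il7r by 1.41 (adjusted p = 0.0430). In MRL/lpr libraries these 2 genes had log2 fold changes of -0.51 and -0.45 and did not pass. Of 14 transcription factors of T cells, 10 were tested and 3 rose in MRL/lpr libraries, Ikzf3 and Runx3 among them, with a median of 0.73. Ikzf3 (Aiolos, a factor of lymphocytes) rose by 4.13 on the log2 scale (limma voom, adjusted p = 0.0228) and Runx3, a factor of the CD8 lineage, by 3.43 (adjusted p = 0.0223). Of 13 cytotoxic and NK genes, 4 were tested and 1 rose, namely Nkg7, a granule protein, by 4.09 (limma voom, adjusted p = 0.0414). Trbc1 rose by 4.83 (limma voom, adjusted p = 0.0186), and Trac at 2.53 did not pass (adjusted p = 0.0536). Cd2, Pdcd1, Ikzf3, Runx3, Nkg7 and Trbc1 reached the filter on low counts only through the MRL/lpr libraries and so had to differ, and the counts and medians of these lists are therefore no support for a difference. In MRL/lpr+MSC against MRL/lpr libraries, limma voom called none of the genes of these lists.

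The genes most like the CD3 and zeta sum across the 9 libraries were Ccl8 (Pearson r = 0.997 of log2 values), Parp14 (0.994), Parp9 (0.987), Ikzf3 (0.986) and Gbp2 (0.983), out of 16397 genes compared. The 9 points share the libraries and their depth, and groups and replicates set most of the spread, so the r is a measure of likeness only. Ccl8, a chemokine, had no count in MRL/mpj, 314, 141 and 45 in MRL/lpr and 3, 9 and 14 in MRL/lpr+MSC libraries. Parp14 had 54, 70 and 52, then 375, 251 and 148, then 58, 92 and 97 counts in the same order of groups.

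Markers of other cells were measured in the same libraries. The 6 plasma cell markers summed to 2.89 to 4.06 CPM in MRL/mpj, to 125, 45.6 and 23.9 in MRL/lpr and to 7.02, 17.0 and 14.6 in MRL/lpr+MSC libraries, and 3 of the 6 did not overlap, being higher in MRL/lpr libraries. The 9 B cell markers summed to 1.63 to 2.41, to 8.12, 7.27 and 4.12 and to 1.66, 2.85 and 2.87 CPM, with 8 of the 9 higher in MRL/lpr with no overlap. Both sums have the same order of MRL/lpr replicates as the receptor genes. The red blood cell markers overlapped between groups, at 58.9 to 167 CPM in MRL/mpj, 53.2 to 104 in MRL/lpr and 27.8 to 149 in MRL/lpr+MSC libraries, as did the neutrophil markers at 2.28 to 7.88, 2.31 to 2.69 and 0.520 to 30.002 CPM. In MRL/lpr libraries 2 of the 7 neutrophil markers had no count. The study's methods state that mice were perfused with PBS before dissection. From staining for T cells, B cells and bone marrow-derived cells, the study reported no infiltration of cells in the MRL/lpr brain. That staining was done in mice older than those of these libraries. From RNA, the study listed T cell receptor signalling among pathways enriched between MRL/mpj and MRL/lpr mice. Cd3d, Cd3e, Cd3g, Cd247, Cd4, Cd8a and Lck are among the genes it named there.

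The 6 NK cell markers summed to 1.05 to 1.41 CPM in MRL/mpj, to 18.5, 5.30 and 16.4 in MRL/lpr and to 0.988, 11.4 and 16.0 in MRL/lpr+MSC libraries. Most of this was Eomes, which hippocampal precursor cells also express, with 468, 99 and 377 counts in MRL/lpr libraries, and the defining marker Ncr1 had 3, 2 and 0. The choroid plexus markers summed to 166 to 701 CPM in MRL/mpj, to 1063, 9493 and 106 in MRL/lpr and to 99.3, 4766 and 545 in MRL/lpr+MSC libraries, in another order than the receptor genes. Meningeal fibroblast markers were at 63.7 to 182 CPM in MRL/mpj, 105 to 240 in MRL/lpr and 61.5 to 113 in MRL/lpr+MSC libraries. The lists of dendritic cells (27.8 to 38.3 CPM), border macrophages (8.68 to 32.1), monocytes (43.3 to 91.9), microglia (281 to 365) and endothelial cells (243 to 334) moved by less than 4-fold over all 9 libraries. The hippocampal neuron markers were present in each library, at 10388 to 11020 CPM in MRL/mpj, 6114 to 9071 in MRL/lpr and 7148 to 10236 in MRL/lpr+MSC libraries. Their sums in MRL/lpr libraries lay below those in MRL/mpj libraries, and 7 of the 9 markers were lower there with no overlap. The share of all genes lower with no overlap was not computed for that comparison. The part of any of these lists in the levels of the receptor genes was not tested.

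**Figure D4:**
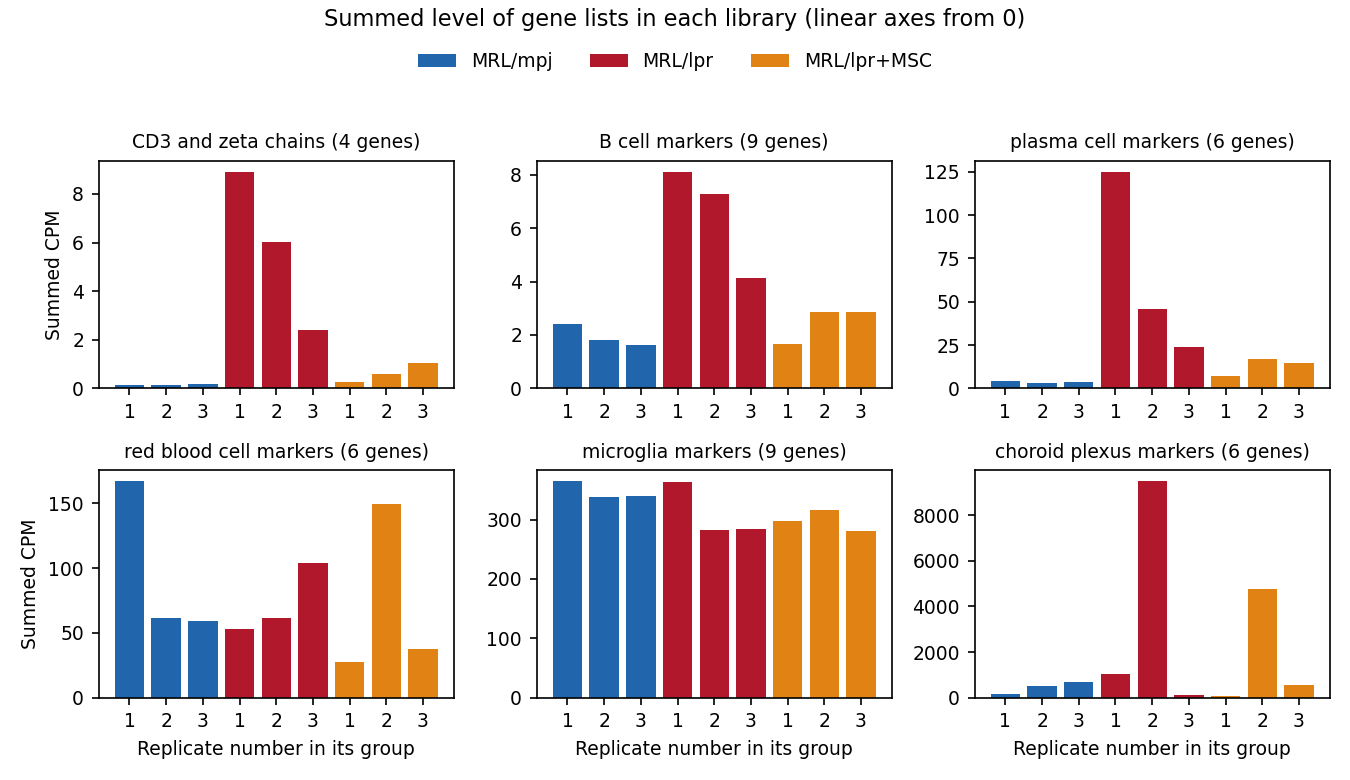
Summed CPM (y axes, linear from 0) of the 4 CD3 and zeta genes and of 5 marker lists in each of the 9 libraries, with blue bars for MRL/mpj, red for MRL/lpr and orange for MRL/lpr+MSC libraries, numbered by replicate. The CD3 and zeta, B cell and plasma cell sums are highest in MRL/lpr replicate 1 and, within that group, lowest in replicate 3, and the choroid plexus sum peaks in MRL/lpr replicate 2 (9493 CPM).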

How the data were processed

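Hippocampal poly-A RNA of 9 libraries was measured. Per the paper, the authors aligned reads with STAR (mm10) and made counts per gene with HTSeq, while the submitters' processing notes name TopHat2 and GRCm38. The deposited table gives raw, unnormalized counts of 47643 genes, and the authors derived the deposited FPKM values from counts and gene length. Whether counting used strand is not stated. Of the value columns, 0 lacked a sample. The columns of the matrix are split by a character that kept the values from being registered as counts, so the planned edgeR test and DESeq2 were not run, and limma voom took their place as the plan foresaw.

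Counts were scaled by TMM (trimming 30% of log ratios and 5% of levels). Genes with at least 10 counts in a library of median size in 3 libraries and 15 in total were tested by limma 3.58.1 (statmod 1.5.0, R 4.3.3), robust, with Benjamini-Hochberg adjustment, each comparison on its own 6 libraries. Intervals of count ratios are 95% exact binomial (scipy). Replicates are separate libraries, and no label says more, so p-values measure the spread between them. No pair within a group was alike (chi-square per gene at least 10.7). Symbols matched 47224 genes. The test was checked on simulated data. The named genes are all 10 members, up to 3 called genes per pathway list, the other receptor constant genes, Fas and the 5 genes most alike; of the last, 2 are described. The members and lists were chosen with earlier results of these data known. 1 called gene of a pathway list is not reported here. The study's behaviour and staining data were not analysed here.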

Additional observations from a re-analysis of the deposited data

How the results depend on the processing

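The number of the 10 genes differentially expressed in MRL/lpr against MRL/mpj libraries (6) was 6 to 8 with median-of-ratios factors, with total counts only, with no filter, with all 9 libraries in one fit, with limma-trend and with library quality weights, the last 2 chosen after seeing the data. It was 0 with a filter at a mean of 1 CPM, which removed all but Lck and Cd4 from the test, and 1 when the null hypothesis was a 1.5-fold change, where 104 genes in all passed. With each library left out it ran from 0 to 9, and the count over all genes (986) from 174 to 1710; quality weights gave 2060 genes. In MRL/lpr+MSC against MRL/mpj libraries it was 0, and 0 to 1 with a library left out (1, Cd4, without MRL/lpr+MSC replicate 1). The count over all genes there (544) was 100 with the test against a 1.5-fold change, 1181 with quality weights and 192 to 1518 with a library left out, and the log2 fold change of Lck ran from -0.067 (without MRL/mpj replicate 2) to 0.16 with a library left out. In MRL/lpr+MSC against MRL/lpr libraries 0 genes were called under every setting run.

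Nothing in the labels ties equal replicate numbers to each other, and the samples were not treated as pairs. The deviations of same-numbered libraries correlated at -0.02 to 0.20 between MRL/lpr and MRL/mpj. They correlated at -0.03 to 0.36 between MRL/lpr+MSC and MRL/mpj and at -0.21 to 0.33 between the lpr groups. The highest value in each of the last 2 was that of replicate 3, so a part shared by number is not excluded. Not every library correlated best with its own number. With a replicate block 8 of the 10 genes and 1363 genes in all were called in MRL/lpr, and 0 and 286 in MRL/lpr+MSC libraries, both against MRL/mpj. The planned edgeR and DESeq2 fits were not run. Counts at or under 3 in most MRL/mpj libraries limit the size of every ratio, and members below the filter have no p. Scaling by total count in place of TMM moved the sum of endothelial markers in MRL/lpr libraries from 308 to 322 CPM and, in MRL/mpj libraries, those of dendritic cells from 31.9 to 30.4, microglia from 348 to 331 and hippocampal neurons from 10705 to 10194 CPM. The other sums of markers moved by less than 1 SD between replicates.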

Other observations

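Ptprc, Lat, Ccl5, Ifng and Foxp3 belong to the lists above but were not among the differentially expressed genes, and they were chosen after their values were seen. They do not stand for all uncalled genes of these lists. In MRL/lpr against MRL/mpj libraries the log2 fold change was positive in 13 of the 19 signalling genes tested. It was positive in 3 of the 4 cytotoxic and NK genes and in 51.9% of all genes tested. Skap1 (-0.58) and Gzmk (-0.39) were among those below 0 and did not pass. Ptprc, the leukocyte phosphatase CD45, had 74, 99 and 72 counts in MRL/mpj, 639, 407 and 185 in MRL/lpr and 64, 122 and 143 in MRL/lpr+MSC libraries. Lat, the adaptor downstream of ZAP-70, had 7, 8 and 2, then 76, 50 and 16, then 8, 6 and 12 counts. Ccl5, a chemokine of cytotoxic lymphocytes, had 3, 2 and 4 counts in MRL/mpj, 161, 52 and 30 in MRL/lpr and 3, 8 and 23 in MRL/lpr+MSC libraries. Ifng, which encodes interferon gamma, had no count in MRL/mpj libraries, 14, 9 and 4 in MRL/lpr and 0, 1 and 0 in MRL/lpr+MSC libraries. Foxp3, the factor of regulatory T cells, overlapped between groups, with 5, 7 and 6, then 18, 8 and 7, then 7, 9 and 14 counts.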
